A study of Prunus persica with 4 samples.

Results

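Among the peach-specific miRNA candidates, 27 of 186 had a more abundant sequence that was 23 nt long and started with adenine. They were chosen by measured values. The more abundant arm of each hairpin was taken by its read count, and its sequence had to be 23 nt long, start with adenine and be listed for fewer than 4 candidates. A further 5 candidates of the same length and first base were left out by name (miRC1, miRC78, miRC88, miRC126 and miRC144). No count was equal on both arms of a candidate, and no 23-nt sequence with adenine was listed for 4 or more candidates, so these conditions removed none. The 27 candidates held 25 distinct sequences, because 2 sequences were each listed for a pair of loci.

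The reads came from 1 small RNA library of the peach cultivar Lovell, from garden-grown trees with no treatment described. The library pooled flower buds, young stems and young leaves. It had no replicate, so no value has a replicate error, and no value belongs to a single tissue. The study also has 3 degradome libraries (young leaves, young stems and flowers), which were not analysed here. Values are raw read counts on each hairpin precursor, on its listed 5′ arm sequence (5p) and on its listed 3′ arm sequence (3p).

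In plants, a Dicer-like enzyme cuts a hairpin precursor into a short duplex, and one strand of it is loaded into an ARGONAUTE protein and guides the silencing of matching RNAs. The other strand, called miRNA*, is mostly degraded. In Arabidopsis, the first base helps to decide which ARGONAUTE takes up a small RNA. Uracil favours AGO1, the main partner of miRNAs, while adenine favours AGO2 or, for the longer small interfering RNAs made by DCL3 from repeats, AGO4. A list of sequences that start with adenine is therefore of interest apart from canonical miRNAs, although neither Dicer-like enzymes nor ARGONAUTE proteins were measured here.

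The sequences below are the 2 with the most reads, the next by reads, and those on which the comparisons between candidates rest. They are written 5′ to 3′ as DNA, as in the deposited table, with the seed (bases 2 to 8) in capitals.
miRC143: aTCACTCAtggtcgttaacgtta
miRC83: aCAAAAGGaagtgtaagtggaca
miRC62 and miRC132: aCAAAAGGgagtataagtggaca
miRC44: aGAAGGTTgctagcattccccta
miRC71: aGGAGTTCgtaggatttttcggt
miRC156: aATAACGTctgaatatccgcata
miRC136: aCGATATTatcgtgcggatatta
miRC45 and miRC153: aGGCATCGaagtagatcagacta
miRC89: aATATTGGaatattggtcgcgca
miRC93: aATGTAGGagtgactaaaggctt
miRC113: aTAGCCGGacggctatactcgta
The 27 candidates had 24 distinct seeds. The seed CAAAAGG was shared by miRC62, miRC83 and miRC132, the seed GGCATCG by miRC45 and miRC153, and every other seed belonged to a single member. No seed was shared with a candidate outside the 27.

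The counts of the 27 precursors summed to 660 reads, which is 4.20% of the 15705 summed over all candidates (95% Wilson interval 3.90 to 4.53%). A sequence was shared with another candidate in 4 of the 27 and in 50 of all 186. Some reads may therefore be counted more than once in both sums. Such intervals cover counting error only. They are too narrow even for that where amplified reads are not independent molecules or where reads are counted at several loci. The median was 11 reads per precursor (95% interval 9 to 18, from the ranks of a binomial distribution), with a range from 5 to 175. Counts were low for most members, and 5 reads was also the fewest on any of the 186 candidates. A median of 11 thus lies close to the lowest count listed. Only 2 members had over 100 reads, 5 had 20 to 50, 11 had 10 to 19 and 9 had 5 to 9. The 39 candidates of 23 nt with another first base, chosen by the same conditions, also had a median of 11 reads (interval 9 to 13), with at most 55. The 15 candidates of 21 nt that start with uracil, the form typical of plant miRNAs, had a median of 19 (interval 13 to 54). They too are only those left by the same conditions, so candidates left out by name are not among them. Their maximum was 136 reads, against 1136 over all 63 candidates of 21 nt. The intervals of these 3 lists overlapped, those of 9 to 13 and 13 to 54 only at 13. This does not show that the medians are equal, and no difference was tested. Rank intervals also treat candidates as independent, which those with a shared sequence are not.

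miRC143 had 175 reads, which is 26.5% of the reads on the 27 precursors (95% Wilson interval 23.3 to 30.01%). Its precursor was listed on the plus strand of scaffold 6, positions 7765797 to 7765903 as deposited. Its 5p sequence had 172 reads, no 3p sequence was listed, and 3 reads fell on neither. The 5p sequence thus took 98.3% of the reads (interval 95.1 to 99.4%). A count of 0 for a listed 3p sequence allows a share of up to 1.71%, taken as 3 reads divided by the 175 reads on the precursor. Where on the hairpin the 3 other reads lay is not in the table, so the count is of listed sequences and not of the whole arm. The precursor of 107 nt is printed with the 5p sequence in capitals, to show that its 3′ arm carries the sequence complementary to it.
miRC143 precursor: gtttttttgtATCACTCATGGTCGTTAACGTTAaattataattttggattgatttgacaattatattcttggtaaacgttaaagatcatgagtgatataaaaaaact
In the deposited structure, 2 of the 23 bases of the 5p sequence were unpaired. The next candidate on that scaffold, miRC144, started 23334 nt away.

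miRC83 came next with 105 reads (precursor on scaffold 3, 501023 to 501112, minus strand), of which 103 were on its 3p sequence and none on a 5p sequence (a share of up to 2.86% for a count of 0). Together miRC143 and miRC83 held 42.4% of the reads on the 27 precursors (interval 38.7 to 46.2%). The short precursor of miRC83, with 90 nt, had a folding free energy of 48.4 kcal/mol in size, equal to the median of the 27, and 53.8 kcal/mol per 100 nt, the third value from the top. Of its bases, 82.2% were paired. It is printed because it shows the long stem behind the best supported of 3 related candidates.
miRC83 precursor: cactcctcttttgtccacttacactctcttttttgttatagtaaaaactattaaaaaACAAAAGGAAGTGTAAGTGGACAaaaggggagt

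miRC83 belonged with miRC62 and miRC132. The last 2 carry the same 23-nt sequence at separate loci, miRC62 on scaffold 2 from 18512102 to 18512192 and miRC132 on scaffold 5 from 2567710 to 2567805, both on the minus strand. Each had 28 reads on this 3p sequence. The counts of the 2 loci are not independent, and which locus the reads came from was not tested. The sequence of miRC62 and miRC132 differs from that of miRC83 by G9A and A13G, counted from base 1 at the 5′ end, with the base of miRC62 first. Both differences lie outside the seed. Differing bases are in capitals here.
miRC62 and miRC132: acaaaaggGagtAtaagtggaca
miRC83: acaaaaggAagtGtaagtggaca
Over the aligned precursors, miRC62 and miRC83 were identical at 87.9% of 91 columns, miRC132 and miRC83 at 80.4% of 97, and miRC132 and miRC62 at 75.5% of 98. miRC83, the variant with the most reads, also had the most stable hairpin of the 3, at 53.8 kcal/mol per 100 nt against 36.5 for miRC132 and 32.6 for miRC62. The identities include the 23-nt sequence itself, and they were not computed for single parts of the hairpin.

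The second shared sequence belongs to miRC45 (precursor on scaffold 2, 4763524 to 4763743, plus strand), and miRC153 (precursor on scaffold 6, 5969981 to 5970200, minus strand). Their precursors were both 220 nt long and identical at 96.4% of 220 aligned columns, so these loci are near copies. The shared 3p sequence had 8 reads at miRC45 and 7 at miRC153, and the same 25-nt sequence was listed with 1 read on the 5′ arm of each. The same sequence thus had unequal counts within 1 library, and a count may hold more or fewer reads than those with exactly these bases.

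miRC136, with 13 reads (precursor on scaffold 5, 15054213 to 15054321, minus strand), was a variant of an abundant sequence outside the 27. Its 5p sequence, with 12 reads, differs from that of miRC126 and miRC144 by A4T, A20G and T21C, with the base of miRC136 first. That sequence had 509 reads at miRC126 and 427 at miRC144, both left out by name. The bases that differ are in capitals.
miRC136: acgAtattatcgtgcggatATta
miRC126 and miRC144: acgTtattatcgtgcggatGCta
One of the differences, A4T, falls in the seed. The precursors of miRC136 and miRC126 were identical at 76.4% of 110 aligned columns, and those of miRC136 and miRC144 at 46.6% of 131. miRC156 had 23 reads on its 3p sequence (precursor on scaffold 6, 20249765 to 20249899, minus strand). It shared a run of 14 bases with the precursor of miRC136, outside the 5p sequence of the latter. No run of at least 13 bases was shared with the precursors of miRC126 and miRC144. Shorter runs of miRC156 matched the listed sequences of miRC136, miRC126 and miRC144 on the opposite strand, below that limit.

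miRC71 (precursor on scaffold 3, 5370697 to 5371044, plus strand), was the remaining member with a related sequence. Shifted by 1 base, its 3p sequence matched the 5p sequence of miRC85, a 23-nt candidate that starts with guanine, with 3 mismatches over 22 bases. It had 42 reads and miRC85 17. Bases that differ are in capitals, and the sequences are offset by that 1 base.
miRC71: aggagttCgtagGaTttttcggt
miRC85: ggagttTgtagCaAttttcggta
The 5′ end of this sequence was therefore adenine in one candidate and the guanine next to it in the other. The longer precursor of miRC71, 348 nt, was identical to that of miRC85 at 51.3% of 359 aligned columns.

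miRC113 was linked to a repeated family, with its longest run on the opposite strand. It had 9 reads, all on its 3p sequence (precursor on scaffold 4, 1583674 to 1583772, minus strand). Its first 14 bases were the reverse complement of a stretch inside a 20-nt sequence that was listed for 7 candidates, miRC23, miRC37, miRC50, miRC98, miRC139, miRC159 and miRC182, with 8 to 10 reads at each. As written, both sequences also hold CGGCTATACT, so they match in part on the same strand too. In both sequences the capitals mark the stretch of 14 bases.
miRC113: ATAGCCGGACGGCTatactcgta
The 7 candidates: tacAGCCGTCCGGCTATact
Its precursor of 99 nt is an inverted repeat, shown with the 3p sequence in capitals.
miRC113 precursor: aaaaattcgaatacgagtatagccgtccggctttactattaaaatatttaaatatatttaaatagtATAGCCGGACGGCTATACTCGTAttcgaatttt
It had the largest folding free energy per length of the 27, with 67.4 kcal/mol per 100 nt, 88.9% of its bases paired and 1 unpaired base in the 3p sequence. The 5′ arm of this hairpin carries a sequence like that of the 7 candidates, but no read was listed there. A count of 0 among 9 reads allows a share of up to 33.3% by the same limit, which is loose at so few reads. A smaller share of reads on that arm could have been missed at this depth.

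Over the whole list, 7 members had a related sequence among the other candidates (at most 5 mismatches over at least 20 aligned bases), and 20 had none. Shifts that left fewer than 20 aligned bases were not tried, so the shortest candidates were compared at only some shifts. Relatives among those, as for miRC113, can be missed. The 7 were miRC45, miRC62, miRC71, miRC132, miRC136, miRC153 and miRC83. A run of at least 13 bases shared with the precursor of another candidate added miRC113, miRC156 and miRC89, and 17 members had neither.

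A listed miRNA* is used as evidence that a hairpin was cut into a duplex, since both strands of the duplex come from the same cuts. Both arms were listed in 5 of the 27 members, which is 18.5%. The share was 17.9% (7 of 39) in the 23-nt candidates with another first base, 33.3% (5 of 15) in the 21-nt candidates with uracil and 24.7% (46 of 186) in all candidates. In each of the 5 members the less abundant arm had a single read, against 7 to 23 reads on the more abundant arm. At least 2 reads on both arms were found in 0 of the 27 members, in 2 of the 39, in 4 of the 15 and in 30 of all 186. The 2 most abundant members, miRC143 and miRC83, had no listed sequence on the other arm.

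Where both arms were listed, the duplex can be laid out, and this was done for 4 of the 5 members. The 2 strands of miRC93, with the seed of the more abundant strand in capitals, were as follows.
miRC93 5p: aATGTAGGagtgactaaaggctt
miRC93 3p: gcctttagtcacccccgcattag
The precursor of miRC93 was on scaffold 3 (13549660 to 13549756, minus strand). In the deposited structure, its strands were joined by 18 base pairs, and each strand had 2 bases beyond the end of its partner at its 3′ end. The strands of miRC45 and of miRC153 also had 18 base pairs and overhangs of 2 bases at both ends, with the 25-nt 5p sequence gtcgagtgctacgttgatgacttgg. Overhangs of this size are the usual trace of a Dicer-like cut. In miRC156 the pattern was uneven, with a 19-nt 5p sequence, gatgtccacatgttatttt, 15 base pairs, and overhangs of 6 bases on the 3p strand and 2 on the 5p strand. So 3 of these 4 had 2 bases at both ends, each resting on 1 read of the second strand. Since miRC45 and miRC153 list the same strands on near copies of a precursor, the 3 hold 2 distinct duplexes, and the second-strand read may be the same at both loci.

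Hairpins differed widely among the members. Precursor length ran from 70 to 348 nt around a median of 125 nt. The size of the deposited folding free energy had a median of 48.4 kcal/mol (interval 35.0 to 62.2), with 18.8 kcal/mol in miRC75, a precursor of 77 nt, and 125.02 kcal/mol in miRC28, a precursor of 265 nt. Because longer precursors fold with a larger energy, values per 100 nt were compared. Their median was 35.5 kcal/mol (interval 24.4 to 39.4), from 18.1 in miRC156 to 67.4 in miRC113. The 23-nt candidates with another first base had a median of 28.6 (interval 26.4 to 31.4), the 21-nt candidates with uracil 42.3 (interval 37.9 to 48.7) and all candidates 36.8 (interval 34.0 to 38.7). The interval of the 27 members overlapped each of these, which does not show that the medians are equal, and no difference was tested.

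The upper end of this range held miRC113, miRC93 with 64.1 kcal/mol per 100 nt, miRC83 with 53.8, miRC46 with 50.2, miRC60 with 49.3 and miRC28 with 47.2. The precursor of miRC93 is printed, with the 5p sequence in capitals, as the most stable of those with both arms listed.
miRC93 precursor: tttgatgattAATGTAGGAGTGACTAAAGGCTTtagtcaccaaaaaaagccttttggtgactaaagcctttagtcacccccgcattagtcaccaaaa
These 6 stable hairpins were not those with the most reads, apart from miRC83. miRC93 had 13 reads, miRC46 had 10, miRC60 had 8 and miRC28 had 5, the fewest of all members. The lower end held miRC156, miRC21 with 18.6 kcal/mol per 100 nt and 9 reads, miRC111 with 18.8 and 9 reads, miRC176 with 19.4 and 6 reads, and miRC71 with 20.4 and 43 reads. High and low read counts were found at both ends of this range.

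The sequences sat near the outer end of their precursors in a fixed way. In all 27 members the more abundant sequence lay exactly 10 nt from the nearer end of the precursor, as in 180 of all 186 candidates, so precursor ends follow from how the table was made and were not measured. Within the sequence, 1 to 6 bases were unpaired, with a median of 4, and 24 of 27 members (88.9%) had at most 4, against 31 of 39 (79.5%) with another first base and 167 of 186 (89.8%) in all candidates. The 3 exceptions were miRC45 and miRC153 with 5 and miRC156 with 6. The distance from the inner end of the sequence to the nearest base paired with it across the loop had a median of 43 nt and ran from 6 nt in miRC89 to 280 nt in miRC71. A single hairpin loop was drawn for 16 members, and miRC71 and miRC180 had the most, with 4 each.

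The 3′ end, which played no part in the choice, was more uniform than the rest of the sequence. Of the 27 sequences, 16 (59.3%) ended in TA, and 23 ended in adenine. Thymine stood at position 22 in 18 members, while at position 21 the 4 bases were nearly even, with 7 adenine, 7 cytosine, 7 guanine and 6 thymine. The sequences of miRC143 and miRC44, printed above, end in this way. Those that ended otherwise were miRC62, miRC83, miRC89 and miRC132 (CA), miRC60 and miRC111 (AA), miRC93 and miRC176 (TT), miRC71 (GT), miRC76 (GC) and miRC180 (GA). Weighted by the 635 reads of the more abundant arm, 58.0% were on sequences ending in TA (95% Wilson interval 54.1 to 61.7%). That interval counts reads and not sequences, and miRC143 alone gave 172 of these reads. Counted over the 27 sequences, the interval around 59.3% was 40.7 to 75.5%.

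The same end was common in 23-nt sequences with another first base and less so at other lengths. TA ended 20 of 39 sequences of 23 nt with another first base (51.3%), but 7 of 63 sequences of 21 nt (11.1%), 1 of 16 of 22 nt (6.25%) and 0 of 25 of 20 nt. Over all candidates of other lengths it was 8 of 104 (7.69%). These are counts of sequences from 1 library, and they were not tested. The base that follows the sequence in the precursor was adenine in 16 of the 27 members, in 16 of the 39 with another first base and in 75 of all 186.

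From position 2 to position 21 no base stood at the same position in more than 14 of the 27 members. That number was reached by adenine at position 9 and guanine at position 19, against 14 and 15 of the 39 with another first base. The 2 pairs with a shared sequence count double in these numbers. GC content had a median of 39.1% in both lists. It ran from 26.1% in miRC28 to 65.2% in miRC76.

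The remaining members had no relative among the candidates by the limits above, no second arm and no more than 50 reads. miRC44 had 50 reads, all on its 3p sequence (precursor on scaffold 2, 4197189 to 4197319, plus strand). miRC133 had 18 reads on a precursor of 341 nt with 276 nt between the sequence and its paired bases. It lay on scaffold 5 (4026851 to 4027191, minus strand). miRC75 and miRC131 each had 13 reads. miRC54 and miRC76 had 11, and miRC46 and miRC180 had 10. miRC21 and miRC111 had 9, miRC60 had 8, miRC116 had 7, miRC48 and miRC176 had 6, and miRC28 had 5. The hairpin of miRC28, with the largest folding free energy of the members, was on scaffold 1 (13317972 to 13318236, minus strand), and those of miRC46 (14126886 to 14127038, plus strand) and miRC60 (16191871 to 16192055, minus strand) were on scaffold 2. For these low counts the depth sets the limit. By the limit of 3 divided by the precursor reads, a second arm at 0 reads allows up to 6.0% in miRC44 and up to 60.0% in miRC28. At the 5 reads of miRC28 this limit is too wide and only a rough guide.

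The 27 loci were spread over 7 scaffolds, with 7 on scaffold 2, 6 on scaffold 3, 4 on scaffold 5, 3 each on scaffolds 4 and 6, and 2 each on scaffolds 1 and 8. Scaffold 1 held 41 of all 186 candidates and 2 of the 27. Scaffold 7 held 15 candidates and none of the 27. Strands were mixed, with 12 members on the plus and 15 on the minus strand, and 12 of the sequences were 5p and 15 were 3p. No precursor overlapped that of another candidate. The nearest neighbours were miRC28 and miRC29, 14843 nt apart. Whether a locus lies in a gene was not analysed here, because the genome version behind the scaffold positions is not given in the sources used here.

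The rule sits close to other candidates with adenine first. Of these, 1 had a sequence of 22 nt with 21 reads, 16 had one of 21 nt with 5 to 236 reads and 11 had one of 20 nt with 5 to 210 reads. The members with a sequence at 2 loci had 9 to 29 reads and those at 1 locus 5 to 175. The counts of the 5 candidates left out by name summed to 1235 reads, more than the 660 of the members. miRC126 and miRC144 share a sequence, so reads may be counted at both. Their precursors had 528 reads in miRC126, 438 in miRC144, 222 in miRC1, 26 in miRC88 and 21 in miRC78, and 3 of the 5 sequences ended in TA.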

How the data were processed

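Low molecular weight RNA of mixed young leaves, young stems and flower buds was sequenced by the authors as 1 library. The authors removed adaptors, reads matching other non-coding RNA (Rfam 10, GenBank) and reads matching miRBase 18, and ran MIREAP with default parameters on the remaining reads. The deposited values are raw counts of reads, not normalized, per precursor and per listed arm sequence. The authors also deposited other values, the folding free energies in kcal/mol (mFold), negative in the table and given here as their size. A locus whose sequence occurs elsewhere can share its reads.

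The 27 members were found by the rule given first, from 186 candidates. The members and lists were chosen with earlier results of these data known. Every member is named. Other candidates are named only where a member is related to them or where the rule leaves them out. Sequences were compared without gaps, shifted by at most 3 bases, on both strands. A comparison over runs of at least 13 bases was added after seeing the data. Precursors were aligned globally with biopython 1.88 and folded again with RNAfold of ViennaRNA 2.7.2. Shares have 95% Wilson intervals (scipy 1.17.1). No test was run, because 1 library has no replicates and candidates are not replicates. No genome was used, so the planned count of genome matches was not made. The duplex of miRC89 is not reported here.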

Additional observations from a re-analysis of the deposited data

How the results depend on the processing

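The number of members was 25 with each distinct sequence counted once and 27 with ties given to the 3′ arm. Members with both arms fell from 5 to 0 when 2 reads or more had to be present on both arms, because each second arm had 1 read, and were 4 by distinct sequence. The median of 11 reads per member stayed at 11 by the more abundant arm, by distinct sequence and without miRC143. The share ending in TA was 60.0% by distinct sequence and 58.0% weighted by reads, against 59.3%. The median energy was 47.6 kcal/mol with RNAfold against 48.4 as deposited, and the median of unpaired bases was 4 with both structures. Related members were 7 at limits of 5 and of 3 mismatches, and 8 members shared a run of at least 13 bases with another precursor. Matches to a genome, exact or with 1 mismatch, were not run, since no genome was used. No paired analysis was possible because 1 library gave all counts. A second arm at 0 reads allows a share of up to 60.0% in the member with the fewest reads, miRC28, and up to 1.71% in miRC143. This limit, 3 divided by the precursor reads, is too wide at the count of miRC28.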
